A study of Mus musculus with 8 samples.

Results

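A set of 8 genes of cholesterol and oxysterol handling was followed in microglia of the mouse hippocampus after injection of the cytokine interleukin-33 (IL-33). The set is Ch25h, Nr1h2, Nr1h3, Abca1, Abcg1, Srebf2, Insig1 and Sqle, and its genes were taken by symbol from the 55471 gene rows of the table. All 8 had a row of their own. Of these, 7 reached the mean of 10 normalised counts required for testing, and Nr1h3 did not.

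Cholesterol is made in the cell by the mevalonate pathway, is taken up with lipoproteins through surface receptors, and leaves through ATP-binding cassette transporters that load it onto apolipoproteins, above all APOE in the brain. The transcription factor SREBP-2, encoded by Srebf2, switches on synthesis and uptake when sterol in the endoplasmic reticulum is low, and INSIG1 holds it there when sterol is high. Oxysterols such as 25-hydroxycholesterol, the product of the enzyme CH25H, act on both arms: they favour the INSIG-bound state of SREBP-2, and oxysterols as a class activate the liver X receptors LXRα (Nr1h3) and LXRβ (Nr1h2), which switch on the exporters Abca1 and Abcg1. In the brain microglia meet cholesterol when they take up myelin and dying cells, and macrophages are known to make Ch25h in response to inflammatory signals.

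The cells came from C57/Bl6 mice at postnatal day 30. Mice had been injected 4 hours earlier with IL-33 (replicates 1 to 4) or with phosphate-buffered saline, PBS (replicates 5 to 8), and all were perfused with PBS before the hippocampus was dissected. Microglia, the resident macrophages of the brain, were sorted for low CD45, the presence of CD11b and the absence of Ly-6C. Each group held 2 female libraries (replicates 1, 2, 5 and 6) and 2 male libraries (replicates 3, 4, 7 and 8), and no transgene or mutant allele is named for either group. The labels give neither the dose nor the site of the injection, and they do not say whether each library is 1 animal, so the p-values measure the spread between these libraries, which may be partly technical.

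RNA was read from the 3′ ends of polyadenylated transcripts, so a value does not scale with transcript length. Reads assigned to genes numbered 16827343 to 21483352 per library, and 7958 to 11902 genes had at least 10 reads, fewest in IL-33 replicates 4 and 3. A count of 0 allows a level of up to 2.20 to 3.12 normalised counts (3 reads), depending on the library, which covers counting error only. All 8 microglial markers were present, with summed levels of 330062 to 518159 after IL-33 and 501768 to 696948 after PBS, and 5 of the 8 were called lower. No marker of another cell type was called. Of 8 neutrophil and lymphocyte markers 7 had no read. Astrocyte markers summed to 5567 to 8508 after IL-33 and to 3165 to 5588 after PBS, with Aldh1l1 at 0, and monocyte and border macrophage markers to 10.9 to 686 and 160 to 407, with Chil3 at 0. Oligodendrocyte lineage markers summed to 3106 to 5976 and 3283 to 4753 (Cspg4 at 0), neuronal markers to 361 to 1886 and 218 to 1008, and endothelial and mural markers to 161 to 594 and 108 to 700 (Ly6c1 at 0). The part of these differences in the results was not tested. In sorted bulk RNA, fewer cells of a kind and less RNA per cell cannot be told apart.

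Levels below are normalised counts, listed per library in the order of the replicates (1 to 4, then 5 to 8) or as mean ± SD with n = 4 per group. A fold change is the difference of the group means of log2(value + 1), with PBS subtracted from IL-33, and a gene was called at an adjusted p under 0.05 in limma, with the adjustment over all 13877 tested genes. Of those genes 5.85% were called, 3.06% higher and 2.80% lower after IL-33. The values of the 4 libraries of each group did not overlap, with IL-33 higher, for 6.26% of tested genes, and with IL-33 lower for 7.41%. The median fold change was −0.40 over all tested genes and 0.08 over the 3116 with a mean of at least 1000. The median over all genes was −0.39 under TMM scaling, −0.12 under quantile normalization and −0.08 in edgeR. It was −0.13 without IL-33 replicates 3 and 4, the male libraries of that group.

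Among the 7 tested genes, 1 was called higher (Ch25h) and 0 were called lower. Ch25h and Insig1 were above every PBS library in all 4 IL-33 libraries, Abcg1 was below every PBS library, and the other 4 overlapped. By edgeR on recovered reads the calls were also 1 higher and 0 lower.

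**Figure D1:**
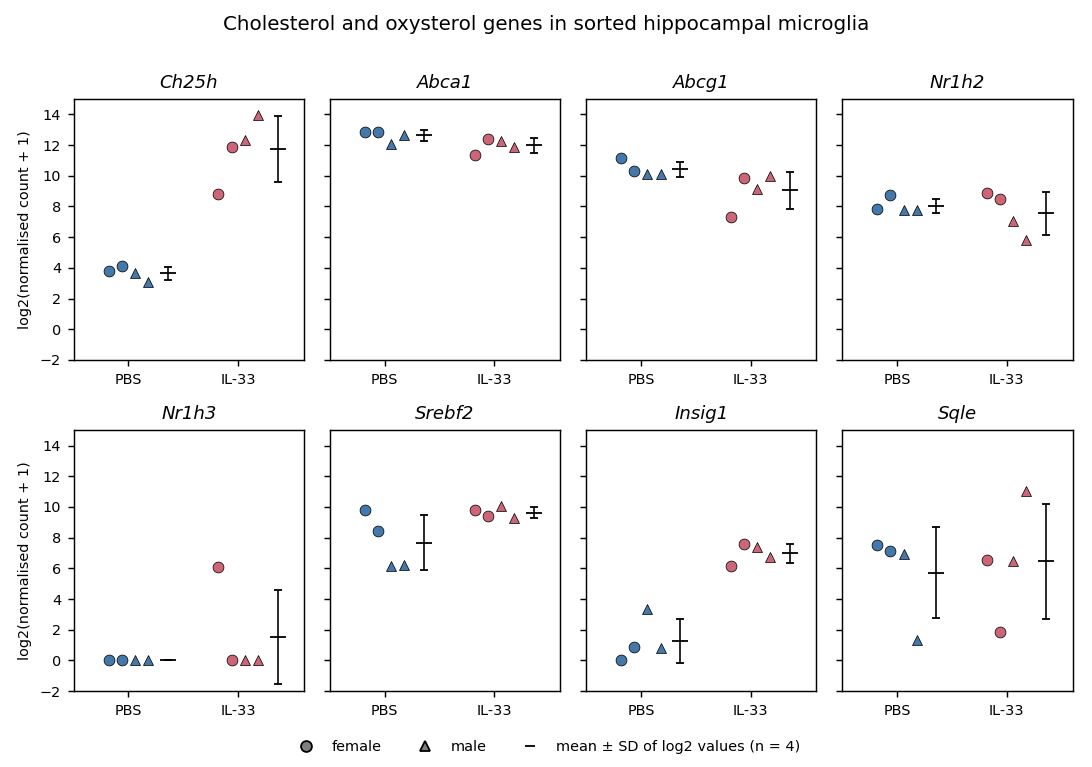
Level of each of the 8 genes as log2(normalised count + 1) in every library, with circles for female and triangles for male libraries. The bar beside each group is the mean ± SD of the log2 values (n = 4). Ch25h and Insig1 separate the groups upward and Abcg1 downward, and Nr1h3 is above 0 in 1 library.

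Ch25h encodes cholesterol 25-hydroxylase, which adds a hydroxyl group to cholesterol and so makes an oxysterol. It lies on chromosome 19 (GRCm38 chr19:34473778-34475164, minus strand). It stood at 452, 3786, 5155 and 15614 after IL-33, against 12.7, 16.2, 11.5 and 7.32 after PBS. The lowest IL-33 library was far above the highest PBS library, while the IL-33 libraries themselves differed by 34.5-fold between the highest and the lowest. Means were 6252 ± 6547 after IL-33 and 11.9 ± 3.66 after PBS, a ratio of 524. Ch25h rose by 8.10 ± 1.14 (SE) on the log2 scale (95% interval 5.70 to 10.49, adjusted p = 1.18e-04), which ranked 36th by size and 113th by p among all tested genes. It was called under all 19 alternative fits, with adjusted p from 4.13e-38 (DESeq2) to 0.0488 (without IL-33 replicates 3 and 4). The difference was 9.07 without IL-33 replicate 1 and 7.37 without replicate 4.

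In PBS libraries Ch25h rested on 10 to 19 reads, and the PBS mean was 0.191% of the IL-33 mean. The female-specific RNA of the inactive X chromosome, Xist, was at 22.7 to 36.1 in the male libraries, 0.293% of its female mean. Whether reads from other libraries contribute to the PBS level of Ch25h was not tested. On the opposite strand Ch25h overlaps the long noncoding gene Gm26902 (chr19:34474808-34481546), which had 96, 1, 1 and 451 reads in the 4 IL-33 libraries in order and 0 in PBS. Replicates 2 and 3, with 1 read of Gm26902 each, had 4474 and 5224 reads of Ch25h.

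The promoters that follow are shown because motifs for known regulators of sterol and stress responses were searched for in them. They run from 250 bases before to 50 bases after the RefSeq start site (GRCm38.p6), 5′ to 3′ on the strand of the gene. The window of Ch25h is chr19:34475099-34475398 (minus strand), with the cAMP response element TGACGTCA in capitals at bases −61 to −54 from the start.
Ch25h promoter: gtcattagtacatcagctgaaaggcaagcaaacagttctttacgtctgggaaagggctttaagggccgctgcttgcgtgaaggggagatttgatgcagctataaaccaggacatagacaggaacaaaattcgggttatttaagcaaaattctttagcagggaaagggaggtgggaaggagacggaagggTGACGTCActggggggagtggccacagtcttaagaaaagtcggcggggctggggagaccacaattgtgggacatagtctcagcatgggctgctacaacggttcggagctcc
That element is bound by CREB and ATF family factors and is present in 1.79% of 32851 mouse promoter windows of this length. The NF-κB site GGGANTTCC (1.68% of windows), the AP-1 site TGANTCA (7.81%) and the interferon-stimulated response element (GAAA, 2 bases, GAAA; 3.44%) were searched on both strands and had no match in the promoter windows of Ch25h, Abca1, Nr1h2, Nr1h3, Srebf2 or Insig1. For Abcg1 and Sqle no window was analysed here.

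Nr1h2 and Nr1h3 encode the 2 liver X receptors. Nr1h2 (chr7:44549616-44553951, minus strand) was at 465, 362, 130 and 55.4 after IL-33, against 223, 424, 215 and 220 after PBS. The groups overlapped, and the IL-33 libraries lay both above and below all PBS libraries. Means were 253 ± 193 and 271 ± 103, and the fold change of −0.47 ± 1.03 (95% interval −2.61 to 1.68, adjusted p = 0.823) turned to 0.11 without IL-33 replicate 4.

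Nr1h3 (chr2:91184061-91202834, minus strand) was at 68.6 in IL-33 replicate 1, from 66 reads, and at 0 in the other 7 libraries. Its mean over all libraries was 8.57, below the minimum for testing. With no minimum its fold change was 1.53 with an adjusted p of 0.564. At this depth LXRα RNA was therefore not detectable in 7 of 8 libraries, whereas LXRβ RNA was counted in all.

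Abca1 encodes the transporter that moves cholesterol and phospholipid onto lipid-poor apolipoproteins and is a standard target of the liver X receptors. The gene lies on chromosome 4 (chr4:53030787-53159895, minus strand). Its level was 2581, 5471, 4990 and 3823 after IL-33, against 7388, 7499, 4380 and 6511 after PBS. PBS replicates 5, 6 and 8 were above all IL-33 libraries, and PBS replicate 7 lay among them. Means were 4216 ± 1291 after IL-33 and 6444 ± 1445 after PBS. The fold change of −0.64 ± 0.31 (95% interval −1.29 to 0.02) did not pass (adjusted p = 0.272, and 0.108 to 0.557 over the alternatives).

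Abcg1 encodes the transporter that moves cholesterol onto lipid-bearing particles and is likewise a target of the liver X receptors (chr17:31057675-31117988, plus strand). It was at 157, 912, 550 and 989 after IL-33, against 2254, 1281, 1111 and 1118 after PBS. Every IL-33 library was below every PBS library, by a narrow margin between 989 and 1111. Means were 652 ± 382 and 1441 ± 548. The fold change of −1.38 ± 0.64 (95% interval −2.71 to −0.05) had an adjusted p of 0.237 and did not pass under any of the 19 alternatives, where it ranged from 0.106 to 0.451. Without IL-33 replicate 1 the fold change was −0.80.

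The ratio of Abca1 to Abcg1 within a library was 16.5, 6.00, 9.08 and 3.87 after IL-33, against 3.28, 5.86, 3.94 and 5.82 after PBS. The ratios overlapped between groups, with IL-33 replicates 1, 2 and 3 above all PBS libraries, replicate 2 by a narrow margin, and replicate 4 among them. The log2 ratio was higher by 0.74 after IL-33 (2.94 ± 0.89 against 2.19 ± 0.42, mean ± SD of 4 libraries). The two-sided exact permutation test gave p = 0.143, where 0.0286 is the smallest possible. Without IL-33 replicate 4 the difference was 1.07 (exact permutation p = 0.0286, the smallest possible with 3 against 4). That p follows from leaving out the IL-33 library that lay among the PBS ratios, since the rest do not overlap. Of 10 alternatives this was the 1 under which the difference passed.

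The promoter window of Abca1 (chr4:53159846-53160145, minus strand) is shown for the element through which liver X receptors are known to act on this gene. Capitals mark the E-box CACGTG at bases −147 to −142, found in 7.15% of all windows, and a direct repeat at −67 to −53, made of TGACC, 5 further bases and TAACC.
Abca1 promoter: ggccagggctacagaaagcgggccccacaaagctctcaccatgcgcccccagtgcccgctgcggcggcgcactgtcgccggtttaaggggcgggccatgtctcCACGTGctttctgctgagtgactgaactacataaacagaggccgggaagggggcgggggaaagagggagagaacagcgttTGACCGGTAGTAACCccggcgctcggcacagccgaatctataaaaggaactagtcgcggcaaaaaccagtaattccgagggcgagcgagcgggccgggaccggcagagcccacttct
The letters of the repeat were written down after this promoter had been read, and they occur in 0.0487% of windows, so their match is a description of Abca1 alone. The promoter windows of Nr1h2 and Nr1h3 held no match to any of the 8 motifs searched.

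Srebf2 encodes SREBP-2 (chr15:82147181-82205379, plus strand). Its level was 889, 688, 1064 and 615 after IL-33, against 896, 349, 69.8 and 73.2 after PBS. PBS replicate 5 lay within the IL-33 range, and the other 3 PBS libraries were below it. Means were 814 ± 203 and 347 ± 389. The fold change of 1.98 ± 0.88 (95% interval 0.14 to 3.83, adjusted p = 0.218) did not pass, and it was 2.70 without PBS replicate 5. Gm49502, an unverified transcript inside Srebf2 on the same strand, had 214 and 223 reads in IL-33 replicates 1 and 3 and 0 to 19 in the other libraries, and reads of the pair may not be fully separable. The promoter window of Srebf2 held the sterol regulatory element core TCACNCCA at −162 to −155 (4.36% of windows) and a CCAAT box at −135 to −131 (37.4% of windows).

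Srebf2 also hosts, in intron 16 of its 19-exon transcript, the microRNA miR-33, which is known to repress Abca1 and, in mice, Abcg1. The mature sequence from RefSeq (chr15:82198127-82198147, plus strand, GRCm38.p6) is shown with its seed, bases 2 to 8, in capitals, and below it the stretches of the Abca1 and Abcg1 3′ untranslated regions that hold the complementary letters CAATGCA, in capitals.
mmu-miR-33-5p: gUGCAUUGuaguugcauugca
Abca1 sites: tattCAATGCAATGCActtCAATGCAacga
Abcg1 sites: gcaacgCAATGCAacgCAATGCAgacagtg
The Abca1 stretch (chr4:53033783-53033812, minus strand) holds 3 matches, of which the first pair overlaps, at bases 135 to 156 after the stop codon. Of 1528 untranslated regions of similar length 0.196% held as many. The Abcg1 stretch (chr17:31114996-31115025, plus strand) holds 2 matches at bases 717 to 733, as many as in 1.95% of 1279 such regions. The other 6 genes held none, and 7.83% of 11245 untranslated regions of tested genes held at least 1. The Mir33 row had 0 reads in all libraries. The libraries were made from polyadenylated RNA, so mature miR-33 was not measured, and a match of letters shows no repression.

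Insig1 encodes the endoplasmic reticulum protein that retains SREBP-2 with its escort SCAP when sterol is plentiful, and it is itself a target of SREBP-2 (chr5:28071363-28078662, plus strand). It was at 70.7, 190, 167 and 106 after IL-33, against 0, 0.852, 9.04 and 0.732 after PBS. In reads these were 68, 225, 169 and 111 against 0, 1, 11 and 1, so the groups were far apart. PBS replicates 5, 6 and 8 were below the limit that a count of 0 allows, and PBS replicate 7 was above it. Means were 133 ± 54.9 and 2.66 ± 4.27. The fold change of 5.72 ± 2.07 (95% interval 1.39 to 10.04), which for so few PBS reads depends on the added 1, had an adjusted p of 0.122. By edgeR the adjusted p was 0.234, while DESeq2 (0.0145) and limma without a variance trend (0.00845) called Insig1 higher, and over all 19 alternatives the range was 0.00845 to 0.250. Without PBS replicate 7 the fold change was 6.41.

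The promoter window of Insig1 (chr5:28071162-28071461, plus strand) is shown because the level of this gene separated the groups. Capitals mark a CCAAT box on the opposite strand (ATTGG, −216 to −212; 37.4% of windows) and an E-box (CACGTG, −101 to −96).
Insig1 promoter: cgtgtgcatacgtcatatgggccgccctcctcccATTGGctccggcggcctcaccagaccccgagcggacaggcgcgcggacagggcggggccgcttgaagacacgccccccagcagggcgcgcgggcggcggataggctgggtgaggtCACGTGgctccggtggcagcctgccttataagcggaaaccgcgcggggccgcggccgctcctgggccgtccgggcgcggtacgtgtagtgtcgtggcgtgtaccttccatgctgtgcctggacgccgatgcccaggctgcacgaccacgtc
The sterol regulatory element core TCACNCCA had no match in this window.

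Sqle encodes squalene epoxidase, which makes the first oxygenation step of the sterol branch of cholesterol synthesis (chr15:59315077-59331192, plus strand). It was at 92.5, 2.54, 87.8 and 2072 after IL-33, against 181, 136, 122 and 1.46 after PBS. IL-33 replicates 1, 2 and 3 were below PBS replicates 5, 6 and 7, and IL-33 replicate 4 stood above all others. The means of 564 ± 1006 and 110 ± 76.8 rest on these single libraries. The fold change of 0.75 ± 2.03 (95% interval −3.49 to 5.00, adjusted p = 0.860) turned to −0.76 without IL-33 replicate 4 and to −0.72 without PBS replicate 8, and it was 2.30 without IL-33 replicate 2.

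**Figure D2:**
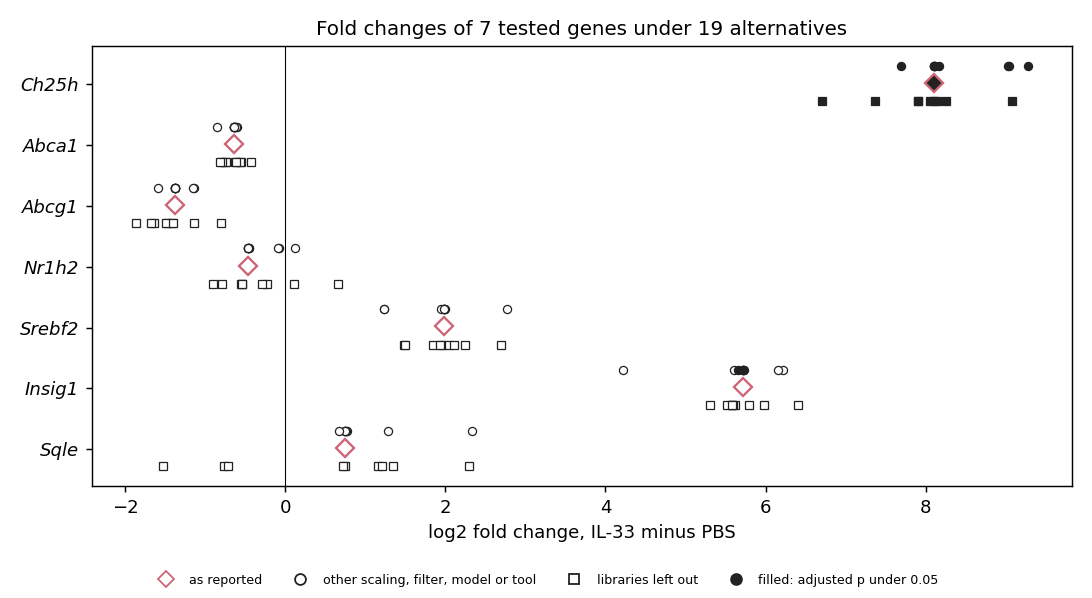
Fold change of the 7 tested genes (log2, IL-33 minus PBS) as reported (diamonds) and under other scalings, filters, models or tools (circles) or with libraries left out (squares), filled where the adjusted p is under 0.05. Ch25h stays between 6.71 and 9.27 and is filled throughout, Insig1 is filled under 2 alternatives, and Nr1h2 and Sqle lie on both sides of 0 (Sqle has no DESeq2 value).

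The same 8 genes were set among 5 lists that hold the pathways by role. The lists name 102 different genes, of which 79 were tested, and 5 were called higher and 5 lower. That is 12.7% of those tested, against 5.85% of all tested genes, and the shares were not matched for level. Among the 3116 tested genes with a mean of at least 1000, 341 were called higher and 260 lower, a share above both 5.85% and 12.7%. The calls among the listed genes were spread over all 5 lists and in both directions. The lists share some genes, among them Srebf1, Abca1 and Abcg1.

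**Figure D3:**
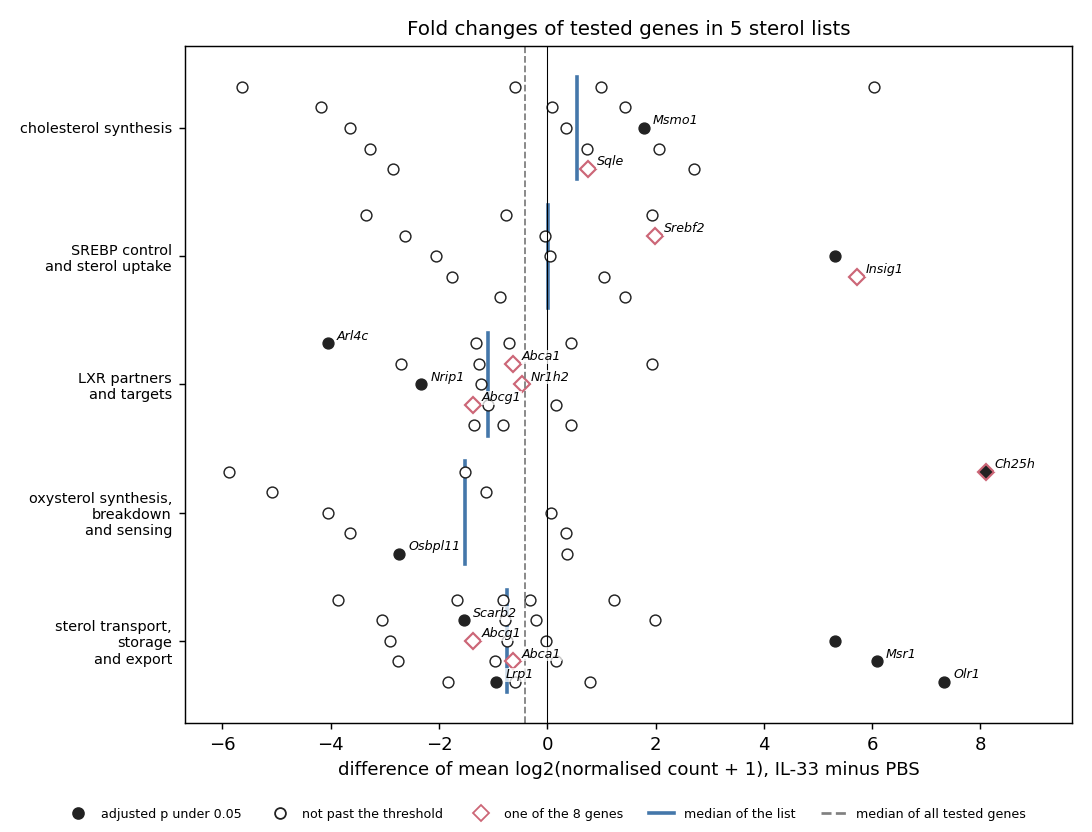
Fold change of every tested gene of the 5 lists (horizontal axis, difference of mean log2(normalised count + 1), IL-33 minus PBS). Filled symbols passed the threshold, diamonds are members of the 8-gene set, blue bars are list medians and the dashed line is the median of all tested genes, −0.40. Medians run from −1.52 (oxysterol synthesis, breakdown and sensing) to 0.54 (cholesterol synthesis).

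Of 20 genes of cholesterol synthesis 16 were tested, and 1 was called higher, 0 lower. The median fold change was 0.54, against −0.40 for all tested genes. Msmo1, the oxidase that removes methyl groups from sterol rings, was at 1492, 1522, 2367 and 5755 after IL-33, against 467, 636, 826 and 884 after PBS. Its 4 IL-33 values were all above the PBS values. It rose by 1.79 ± 0.52 (adjusted p = 0.0495), a call that stayed in 1 of the 8 fits with 1 library left out, the fit without IL-33 replicate 1. In edgeR its adjusted p was 0.0166.

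Hsd17b7, a later enzyme of the pathway, stood at 658 ± 515 after IL-33, against 28.4 ± 52.3 after PBS (6.04 ± 1.80, adjusted p = 0.0549), with no overlap. Cyp51, the lanosterol demethylase, was at 4405 ± 362 and 4180 ± 762 (0.09 ± 0.29, adjusted p = 0.882). Hsd17b7 and Cyp51 were chosen after their values were seen. Fold changes of the 16 tested enzymes ran from −5.63 (Mvk) to 6.04, 10 above 0 and 6 below. Idi1 had no read in any library.

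**Figure D4:**
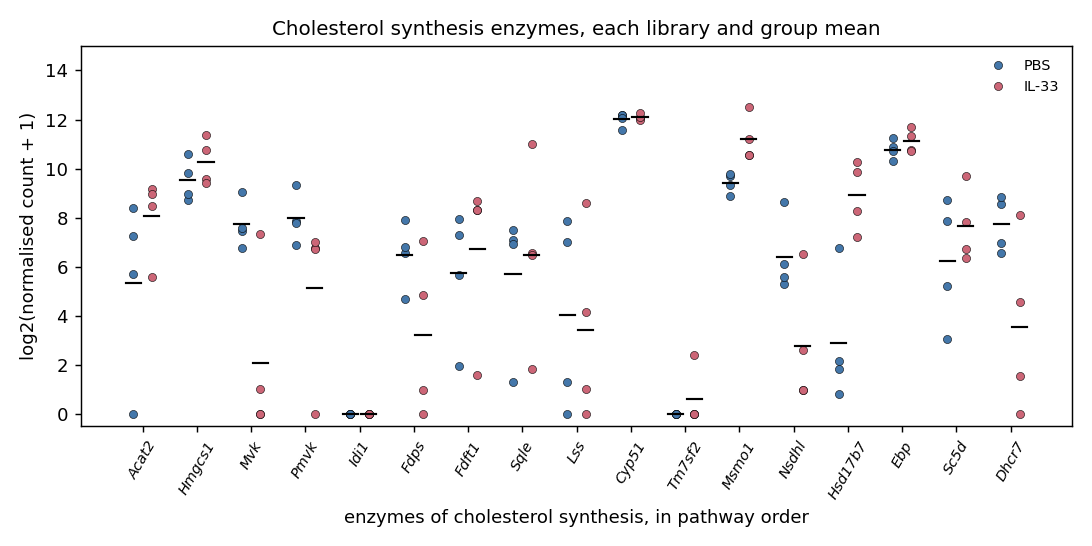
Level of 17 enzymes of cholesterol synthesis in pathway order, as log2(normalised count + 1) in every library (blue PBS, red IL-33), with black bars for group means. Msmo1 and Hsd17b7 separate the groups upward, and Cyp51 and Ebp overlap at a high level. Values near 0 occur in some libraries of both groups, among them those of Mvk, Nsdhl and Dhcr7 after IL-33 and of Sqle after PBS.

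Of 17 genes of SREBP control and sterol uptake 14 were tested, and 1 was called higher, 0 lower, with a median fold change of 0.01. Scap, the escort of SREBP-2, was at 1540 ± 946 after IL-33, against 1367 ± 592 after PBS (0.05 ± 0.54, adjusted p = 0.968), and Insig2, the second INSIG, at 534 ± 567 and 1291 ± 631 (−2.05 ± 0.93, adjusted p = 0.226).

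Of 22 partners and targets of the liver X receptors 17 were tested, and 0 were called higher and 2 lower, with a median fold change of −1.09. Nrip1, a cofactor that nuclear receptors bind, fell by 2.33 ± 0.41 (adjusted p = 0.00130). It was at 2574, 730, 4105 and 1616 after IL-33, against 8779, 9732, 10938 and 8504 after PBS, without overlap, and stayed called with each library left out. Arl4c, a small GTPase whose gene is a target of the liver X receptors, was at 458, 332, 1547 and 12.4 after IL-33 and at 4520, 2838, 4974 and 3765 after PBS, also without overlap. It fell by 4.05 ± 0.96 (adjusted p = 0.0148), by 2.67 without IL-33 replicate 4 and by 4.95 without IL-33 replicate 3, and lost its call without any single PBS library.

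Apoe, which encodes the main apolipoprotein of the brain and is another target of these receptors, was at 14459 ± 3250 and 10589 ± 1754 (0.43 ± 0.23, adjusted p = 0.312). The receptors' partner Rxra, which pairs with them on DNA, was at 552 ± 402 and 942 ± 381 (−1.09 ± 0.77, adjusted p = 0.457). Abca1 and Abcg1, the members of this list with the best known response, did not pass, and 13 of the 17 tested genes had a fold change below 0, as had 8151 of all 13877 tested genes.

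Of 18 genes that make, break down or sense oxysterols 11 were tested, and 1 was called higher (Ch25h) and 1 lower, with a median of −1.52. The lower gene was Osbpl11, an oxysterol-binding protein relative, at 557, 114, 93.8 and 1669 after IL-33, against 2744, 1819, 2094 and 1885 after PBS. IL-33 replicate 4 stood close below the PBS values and the other 3 well below. Osbpl11 fell by 2.73 ± 0.77 (adjusted p = 0.0405), by 3.53 without IL-33 replicate 4, and it stayed called in 2 of the 8 fits with 1 library left out. By edgeR its adjusted p was 0.148.

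The enzyme that turns 25-hydroxycholesterol toward the ligand of the receptor GPR183, Cyp7b1, had no read in any library, nor had Hsd3b7, which acts after it. Gpr183 itself stood at 11483 ± 3143 after IL-33, against 8777 ± 1074 after PBS (0.35 ± 0.25, adjusted p = 0.475). Cyp27a1, which makes 27-hydroxycholesterol, was at 0 to 1.04 in the 4 IL-33 libraries and at 0.847, 790, 104 and 580 in PBS replicates 5 to 8. PBS replicate 5 fell within the IL-33 range, and the adjusted p was 0.161 in limma and 0.0243 in edgeR.

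Of 29 genes of sterol transport, storage and export 25 were tested, and 3 were called higher (among them Msr1 and Olr1) and 2 lower (Scarb2 and Lrp1), with a median of −0.74. Msr1, a scavenger receptor for modified lipoproteins, was at 1612, 315, 1919 and 721 after IL-33, against 158, 34.9, 0.822 and 2.20 after PBS. Every IL-33 library was above every PBS library. It rose by 6.08 ± 1.56 (adjusted p = 0.0236), by 7.27 without PBS replicate 5 and by 5.12 without PBS replicate 7, and lost its call without IL-33 replicate 1, IL-33 replicate 3 or PBS replicate 8. Olr1, the receptor for oxidised LDL, had 451, 592, 565 and 57 reads in the IL-33 libraries and 1 read in each PBS library, and the PBS level was under the limit that a count of 0 allows. It was called at an adjusted p of 0.0372 and stayed called in 1 of the 8 fits with 1 library left out, the fit without IL-33 replicate 4.

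Scarb2, a lysosomal membrane protein, was at 4839, 2691, 4574 and 2633 after IL-33, against 10906, 13078, 8840 and 8839 after PBS. The groups were well apart. It fell by 1.54 ± 0.29 (adjusted p = 0.00229) and stayed called with each library left out. Lrp1, an endocytic receptor for APOE-bearing lipoproteins, named after its values were seen, was at 5614 ± 1338 and 10583 ± 872, without overlap. It fell by 0.94 ± 0.25 (adjusted p = 0.0300, edgeR 0.0632) and stayed called in 1 of the 8 fits with 1 library left out, the fit without IL-33 replicate 4.

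Genes that release cholesterol from the lysosome or store it were also followed, and Npc1, Npc2 and Soat1 did not pass. Npc1 and Npc2, which move cholesterol out of the lysosome, were at 1099 ± 363 against 1656 ± 519 (−0.60 ± 0.47, adjusted p = 0.513) and 11585 ± 1961 against 10453 ± 2588 (0.16 ± 0.23, adjusted p = 0.707). Soat1, which esterifies cholesterol for storage, was at 1336 ± 856 against 1816 ± 513 (−0.74 ± 0.58, adjusted p = 0.509). Npc1, Npc2 and Soat1 were also chosen after their values were seen. The scavenger receptor Cd36 had no read in any library.

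**Figure D5:**
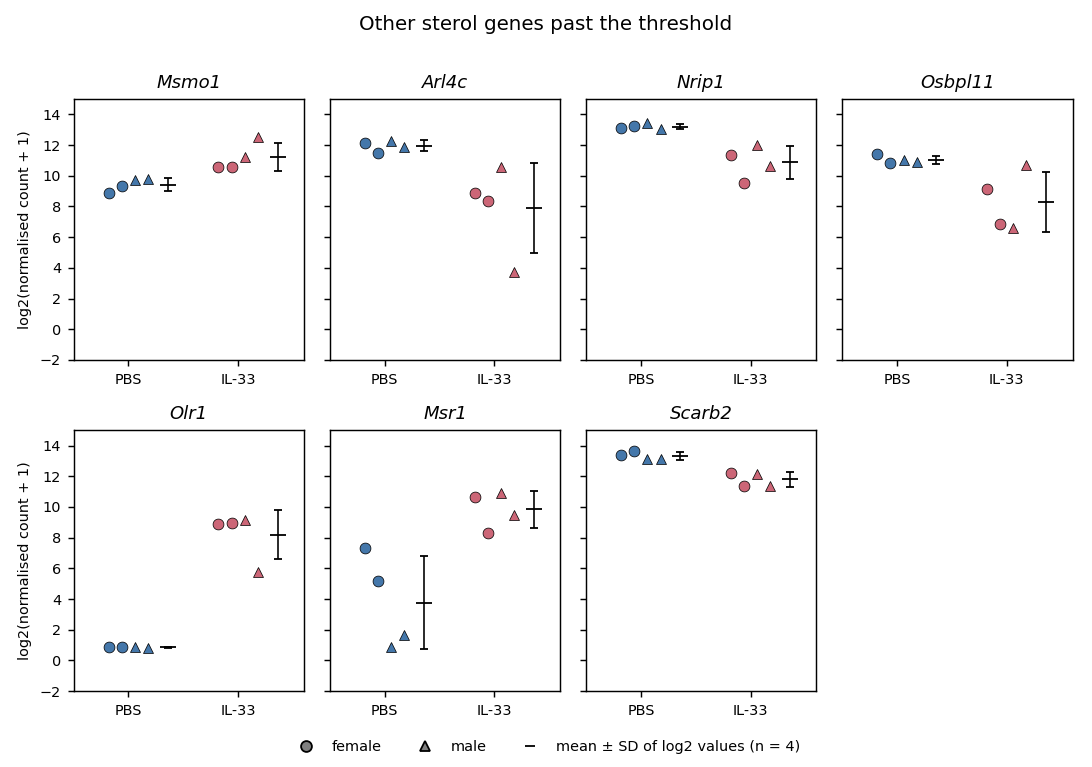
Level of 7 further genes of the lists that passed the threshold and that the naming rule covers, as log2(normalised count + 1) in every library (circles female, triangles male), with mean ± SD of the log2 values (n = 4). Msmo1, Olr1 and Msr1 are higher and Arl4c, Nrip1, Osbpl11 and Scarb2 lower after IL-33, in each panel without overlap.

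The IL-33 effect was compared between female and male libraries, 2 per group and sex. The male IL-33 libraries had fewer genes with at least 10 reads (8948 and 7958) than the female ones (10736 and 10432). After IL-33, sex and this difference between libraries cannot be told apart. Of 13877 tested genes 0 were called for a difference between the sexes (0% of tested genes) in limma and 0 in edgeR, while 809 had an unadjusted p under 0.05 in limma. For Ch25h the fold change was 6.42 ± 1.41 in females and 9.78 ± 1.41 in males (difference adjusted p = 0.783). For Srebf2 it was 0.48 ± 0.94 in females and 3.48 ± 0.94 in males, the 1 gene of the 7 with an unadjusted p under 0.05 (0.0496, adjusted p = 0.783). The male PBS libraries, at 69.8 and 73.2, were the lowest for Srebf2, and the 4 IL-33 libraries of both sexes lay within 615 to 1064. Adjusted p-values of the 7 genes ran from 0.783 to 0.924 in limma.

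For each tested gene the 3 genes with the nearest profile were named by the root mean square difference of log2(value + 1) over the 8 libraries, after subtraction of each gene's own mean, among 11211 genes with an established symbol. Nearest to Ch25h were the chemokine gene Ccl12 (difference 0.89), the zinc transporter gene Slc30a3 (0.93) and the survival gene Bcl2a1d (1.04), which has near-identical copies that may share its reads. Ccl12 went from 456 to 89622 in the mean (adjusted p = 2.60e-09). Nearest to Insig1 were Il27, a cytokine subunit (0.92), Bcl3, an atypical IκB protein (0.96), and Clic4 (0.97).

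For Abca1 the nearest genes were Itm2c (0.12), Arhgap25 (0.21) and Cst3 (0.22), and for Abcg1 Cep170 (0.31), Vrk1 (0.33) and Acap2 (0.36). For Srebf2 they were Thumpd1 (0.58), Ets2 (0.67) and Ripk2 (0.71), for Nr1h2 Pabpc4 (0.33), Stx4a (0.34) and Ddx10 (0.38), and for Sqle Zbtb21 (0.96), Rbm45 (1.11) and Wdr41 (1.34). None of the 8 genes was among the 3 nearest of another. The 8 points share their libraries and the group difference, and when each group was centred on its own mean 3 of the 21 nearest genes stayed nearest (Itm2c, Zbtb21 and Rbm45).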

How the data were processed

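RNA was measured in 8 libraries of sorted hippocampal microglia, 4 per group as the labels give them. The deposited table holds a normalised signal per gene and library. Each value is a count that was divided by a factor of its library: dividing by the smallest step gave whole reads for 100% of values, with a tolerance of 0.01 read. Per the submitters' processing notes, the tools were DESeq2 1.24.0, HTSeq 0.9.0, STAR 2.5.4b and FastQC and the builds mm10 and GRCm38. The strand setting of the counting and the treatment of duplicates were not stated in the labels, and reads without molecular identifiers are not independent molecules. Coordinates are from GENCODE M21 (GRCm38), in which 55144 of 55471 rows matched by identifier. No reads were present in 36850 rows, and 305 symbols stood on more than 1 row; for these the row of highest mean represents the gene.

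The main test was limma 3.58.1 (R 4.3.3) on log2(value + 1) with a variance trend and group as the sole term, two-sided, over genes with a mean of at least 10, with Benjamini-Hochberg adjustment. The added 1 pulls changes of genes with few reads toward 0, but fold sizes in limma were not always the smaller. Against edgeR, that of Ch25h was smaller (8.10 against 9.02) and that of Mvk larger (−5.63 against −2.61). Difference between the sexes was an interaction contrast in a model with a mean per treatment and sex. The ratio of Abca1 to Abcg1 was tested by exact permutation. Scripts were tested on simulated data. Alternatives were, on whole reads, DESeq2 1.42.0 and the quasi-likelihood test of edgeR 4.0.16, and further TMM and quantile scaling, pseudocounts of 0.5 and 5, no minimum and a minimum of 50, no variance trend, sex as a covariate, each library left out, IL-33 replicates 3 and 4 left out, and an adjusted p under 0.01.

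The 8 genes and the lists were chosen with earlier results of these data known, so no count over them is independent support. Named beside the 8 are, for each list, up to 4 called genes with the largest change, and for each of the 8 the 3 nearest profiles. Others are said to have been chosen after their values were seen, which holds also for genes named only as at 0, for Scap, Insig2, Apoe, Rxra, Gpr183, Cyp27a1 and Mvk, and for the genes that overlap the 8. Mvd was not analysed here, and values of a few listed genes are left out of the text. Promoter and microRNA sequences are from RefSeq (GRCm38.p6), where 6 of the 8 genes matched a promoter, and untranslated regions from the GRCm38 genome.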

Additional observations from a re-analysis of the deposited data

Results flagged for a closer look

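In 5 of the 32 groups of 4 libraries looked at, 1 library stood far from the other 3 (its gap to the nearest, as a share of the group's range, passed the 95% critical value of Dixon's test). For normally distributed values chance flags about 1 in 20 such groups. Whether that rate holds for these normalised counts, some of them at or near 0, was not tested. Abcg1 was at 2254 in PBS replicate 5, above 1111 to 1281 in the other PBS libraries. Nr1h2 was at 424 in PBS replicate 6, above 215 to 223 in the others. Nr1h3 was at 68.6 in IL-33 replicate 1 and at 0 in the others. Insig1 was at 9.04 in PBS replicate 7, from 11 reads, above 0 to 0.852. Sqle was at 2072 in IL-33 replicate 4, above 2.54 to 92.5.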

How the results depend on the processing

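No paired analysis was possible because the groups share no replicate numbers (1 to 4 against 5 to 8). Of 299 fold changes of named genes under alternatives, 239 kept their direction and side of the threshold, 52 lost the call, 2 gained it (Insig1, under DESeq2 and without a variance trend) and 6 changed sign. The last were Nr1h2 (0.13 under quantile scaling, 0.11 without IL-33 replicate 4 in a range of −0.90 to 0.11 with 1 library left out, 0.66 without IL-33 replicates 3 and 4) and Sqle (−0.76 without IL-33 replicate 4 in a range of −0.76 to 2.30, −1.53 without IL-33 replicates 3 and 4, −0.72 without PBS replicate 8), and the cause was not tested.

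Over all genes, calls higher and lower were 424 and 388 as reported, 790 and 877 by DESeq2, 175 and 238 without a variance trend, and 228 and 149 at an adjusted p under 0.01. Lower calls were 204 without a minimum. With 1 library left out, higher calls ran from 305 to 432 and lower calls from 153 to 531. The lower calls were 185, 153, 176 and 173 without PBS replicates 5, 6, 7 and 8. Of the 8 genes 2 were called higher by DESeq2 and without a variance trend, and 1 with any single library left out.

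Calls in cholesterol synthesis, 1 higher as reported, were 3 by DESeq2, 2 with a pseudocount of 5 or quantile scaling, and 0 with no minimum, no variance trend, a pseudocount of 0.5, without IL-33 replicates 3 and 4 and at 0.01, and ran from 0 to 1 with 1 library left out. For SREBP control and sterol uptake, higher calls were 2 by DESeq2 and 0 without IL-33 replicates 3 and 4 and at 0.01. Lower calls there were 1 under quantile scaling and without IL-33 replicates 3 and 4, and 0 to 1 with 1 library left out. Lower calls among liver X receptor partners and targets, 2 as reported, were 1 with no minimum and at 0.01, 0 without a variance trend, and 1 to 2 with 1 library left out. In the oxysterol list lower calls were 1 as reported, and 2 with a pseudocount of 5, quantile scaling and without IL-33 replicates 3 and 4. They were 0 with no minimum, no variance trend and at 0.01, and 0 to 1 with 1 library left out. By edgeR and DESeq2 the count was also 1, but the gene called lower was Cyp27a1 and not Osbpl11. In sterol transport, 3 higher calls became 1 with no minimum or no variance trend, 0 without IL-33 replicates 3 and 4 and at 0.01, and 1 to 4 with 1 library left out. The 2 lower calls there became 1 by edgeR, with no minimum and at 0.01, 0 without a variance trend, and 1 to 2 with 1 library left out. The difference in the log2 ratio of Abca1 to Abcg1 ran from 0.38 to 1.07 with 1 library left out, and passed at 1.07, without IL-33 replicate 4.

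Nr1h3, Insig1 and the PBS levels of Ch25h and Olr1 rest on few reads, so absence or a fold size cannot be read from them. The same holds for other genes with few reads in some libraries, among them Osbpl3 and Cyp27a1 after IL-33 and Hsd17b7 and Msr1 after PBS. Osbpl3 had 28, 1, 0 and 0 reads after IL-33, and Hsd17b7 had 3, 4, 130 and 1 after PBS.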

Other observations

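Some further genes of the lists kept their 4 IL-33 values apart from their 4 PBS values without passing the threshold, and they were chosen for this after their values were seen. Osbpl1a and Osbpl3, relatives of the oxysterol-binding protein, were at 141 ± 189 after IL-33 against 853 ± 266 after PBS (−4.05 ± 1.29, adjusted p = 0.0739 in limma) and at 7.48 ± 14.4 against 109.7 ± 67.6 (−5.09 ± 2.15, adjusted p = 0.192). Scd2, a fatty acid desaturase controlled by the liver X receptors and SREBPs, was at 680 ± 113 against 1749 ± 349 (−1.35 ± 0.48, adjusted p = 0.116). Fads1, another desaturase, was at 496 ± 363 against 1745 ± 399 (−2.62 ± 0.88, adjusted p = 0.0929). The nuclear receptor corepressor Ncor1 was at 3278 ± 923 against 5251 ± 922 (−0.71 ± 0.31, adjusted p = 0.217). Ubxn8 was at 3097 ± 986 against 1476 ± 409 (1.05 ± 0.40, adjusted p = 0.147). Of all tested genes 6.26% lay apart upward and 7.41% downward.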
